A study of Drosophila melanogaster with 6 samples.

Results

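Chitin is a polymer of N-acetylglucosamine that stiffens the cuticle of the epidermis and lines the tracheal tubes of the fly. Its precursor, UDP-N-acetylglucosamine, is made in the cytoplasm by the product of mmy, and the membrane enzyme encoded by kkv polymerises it and extrudes the chain. Outside the cell, knk and rtv are needed to organise the fibres, the deacetylases verm and serp modify them, chitin-binding proteins such as those of obst-A and Gasp pack them, and chitinases such as Cht2 cut them.

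The set held 9 genes, kkv, knk, rtv, mmy, verm, serp, obst-A, Gasp and Cht2, and took every probe set that the platform annotation names with a single one of them. It found 10 of the 13966 probe sets that were not controls, covering 8 of the 9 genes, where the single-gene probe sets of the array name 10825 genes. Both serp and obst-A had 2 probe sets each. No probe set carried rtv as its single gene, so rtv was not analysed here. All 10 were bright enough to be tested, that is above 197.35, the median of all intensities, on at least 1 array. Gasp and serp 149071_at passed this only on EC_pos arrays. On LB_neg and LB_pos they read 192.7 and 101.2 (Gasp) and 35.5 and 92.0 (serp 149071_at). Counts below that hold these probe sets are thus not independent of the filter.

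Total RNA of sorted Drosophila melanogaster cells was measured on 6 one-colour arrays. All cells came from preparations carrying a red fluorescent protein, dsRed1, fused directly to the 2.1 kb Gad1 promoter. Gad1 encodes the enzyme that makes the inhibitory transmitter GABA. The EC_pos group was the fluorescent fraction of cultured embryonic cells, on 4 arrays named a to d. The LB_pos group was the fluorescent fraction of larval brain and ventral nerve cord, on 1 array, and the LB_neg group the non-fluorescent fraction of that tissue, also on 1 array. The sources used here give no strain, stage, days in culture or purity of the sort. Embryo and larva differ together with culture and tissue, so these effects cannot be told apart. Nothing in the labels says that arrays a to d were separate cultures, so every p-value rests on a spread that could be technical. The larval groups had no replicates. In such sorted pools, fewer cells of a type and less RNA per cell cannot be told apart.

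The Gad1 probe set lay between 22.2 and 39.0 in EC_pos, at 22.0 on LB_neg and at 54.8 on LB_pos, too dim to be tested, so it gave no check of the sort. Median intensities lay between 182 and 229 on the 6 arrays. EC_pos array a stood apart, correlating across the tested probe sets at r = 0.588 to 0.707 with the other EC_pos arrays, which reached 0.908 to 0.944 among themselves (probe sets are not independent replicates). The ratio of 3' to 5' control probe sets of GAPDH was 866 on array a and between 8.9 and 42.4 on the other arrays. The gap was smaller for actin, at 148 on array a and 19.5 to 72.5 on the others. For eIF-4a the ratio was 640 on array a and 18.7 to 120 on the others, highest on LB_neg. The other arrays thus differed in these ratios too, with actin at 72.5 on array b and 19.5 and 20.2 on c and d. Leaving out array a does not remove these differences. For this reason each of the 10 probe sets was tested against LB_pos both with all arrays and without array a. Of 12 epidermal and tracheal marker genes 8 had probe sets, and their summed intensity was 4119 to 5838 on the EC_pos arrays, 1324 on LB_pos and 1026 on LB_neg. Within that list pio, a tracheal matrix protein, and y, a cuticle pigment protein, were the bright ones, and the bristle and hair gene sha was at most 17.8 on every array. The marker btl read 12.6 to 36.1 in EC_pos, 63.6 on LB_pos and 31.5 on LB_neg, and trh had no probe set. The marker vvl read 56.7 to 352.1, 81.1 and 291.5, and grh 197.7 to 398.0, 162.8 and 168.9. Muscle markers summed to 1674 on array a, 6625 to 10367 on b, c and d, and 236 and 350 on the larval arrays. Neuron markers summed to 1902 to 6133 in EC_pos, 9201 on LB_pos and 7911 on LB_neg, neuroblast markers to 1176 to 1897, 3230 and 7464, glial markers to 2997 to 4685, 3236 and 6123, and fat body markers to 294 to 602, 515 and 461. Single bright probe sets weigh heavily in these sums. In EC_pos nrv3 gave 1231.4 to 3813.4 of the neuron sum and loco 152188_at 1488.4 to 3173.1 of the glial sum. There Mlc2 gave 1410.2 to 8179.0 of the muscle sum. On LB_neg gcm gave 3914.1 of the glial sum. Of 5 tested neuron probe sets 4 were higher on LB_pos than on LB_neg, but elav was lower (1540.6 against 4939.9). The part of these cell types in the values below was not tested.

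The enzyme of precursor supply came first in the pathway. The gene mmy encodes UDP-N-acetylglucosamine pyrophosphorylase, whose product serves protein glycosylation in all cells as well as chitin. Its probe set read 2810.9, 2102.2, 4691.0 and 2052.0 on EC_pos arrays a to d, 4608.3 on LB_pos and 3438.2 on LB_neg. The groups overlapped, with the EC_pos arrays on both sides of LB_neg and array c above LB_pos. The EC_pos minus LB_pos difference, on the scale of log2(intensity + 53.6) used throughout, was -0.73 ± 0.64 (SE, 95% interval -2.25 to 0.78, limma adjusted p = 0.647). Without array a it was -0.74 ± 0.47 (limma adjusted p = 0.306, and 0.306 to 0.84 over the alternatives). It was the only probe set of the 10 whose fitted difference from LB_pos was below 0 with all arrays.

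The chitin synthase kkv was bright in EC_pos and on LB_pos and dim on LB_neg. It read 407.1, 228.0, 386.6 and 651.8 on EC_pos arrays a to d, 306.2 on LB_pos and 42.4 on LB_neg. All 4 EC_pos arrays lay above LB_neg, whereas LB_pos fell between arrays b and c. The difference from LB_pos was 0.32 ± 0.60 (SE, 95% interval -1.11 to 1.74, limma adjusted p = 0.854), so a difference of over 1.74 log2 units in favour of EC_pos lay outside the interval. Without array a it was 0.30 ± 0.55 (limma adjusted p = 0.731, and 0.731 to 0.975 over the alternatives). Against the mean of both larval arrays it was 1.27 ± 0.46 and was not called (limma adjusted p = 0.182). The 42.4 on LB_neg lay below 53.6, the 25th percentile of all intensities.

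The gene knk encodes a chitin-organising protein that shields new chitin from chitinases. It read 306.5, 1093.9, 1353.6 and 1236.2 on EC_pos arrays a to d, 418.2 on LB_pos and 235.8 on LB_neg. Arrays b, c and d lay above both larval arrays, and array a lay between them. The difference from LB_pos was 0.98 ± 0.82 with all arrays (limma adjusted p = 0.634). Without array a knk rose by 1.44 ± 0.35 (SE, n = 3, limma adjusted p = 0.0317, and 0.0317 to 0.806 over the alternatives).

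Among the modifying enzymes, the deacetylases verm and serp act together in shaping tracheal tubes, and no protein-coding gene lies between them in the RefSeq annotation (0 genes). The verm probe set read 1569.7 on EC_pos array a, 6661.9, 7076.6 and 9035.3 on b, c and d, 1201.6 on LB_pos and 575.1 on LB_neg. Every EC_pos array lay above both larval arrays, array a by the least. The difference from LB_pos was 2.04 ± 0.97 with all arrays (limma adjusted p = 0.422). Without array a verm rose by 2.59 ± 0.31 (limma adjusted p = 0.00164, and 0.00164 to 0.658 over the alternatives).

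The first serp probe set, 149070_at, spanned the widest range of the 10. It read 47.4 on EC_pos array a, then 1768.8, 4548.6 and 6792.4 on b, c and d, 275.9 on LB_pos and 36.3 on LB_neg. Array a lay below LB_pos and near LB_neg, while b, c and d lay well above both. The difference from LB_pos was 2.24 ± 2.10 with all arrays (95% interval -2.76 to 7.23, limma adjusted p = 0.674) and 3.55 ± 0.65 without array a (limma adjusted p = 0.00996, and 0.00996 to 0.828 over the alternatives).

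The second serp probe set, 149071_at, was dimmer and ordered the arrays in a similar way, with 69.8, 102.9, 407.2 and 374.8 on EC_pos a to d, 92.0 on LB_pos and 35.5 on LB_neg. It was not called in either fit, at 0.77 ± 0.87 with all arrays (limma adjusted p = 0.733) and 1.11 ± 0.65 without array a (limma adjusted p = 0.272). The probe sets of serp thus differ in the call, and both were higher in EC_pos than on LB_pos in the fitted mean. The chitinase Cht2 read 52.2 on EC_pos array a, 891.2, 1715.2 and 2335.0 on b, c and d, 523.9 on LB_pos and 274.2 on LB_neg. Array a was the dimmest of all 6 for this gene, and the other EC_pos arrays were the brightest. Its difference from LB_pos was 0.48 ± 1.58 with all arrays (limma adjusted p = 0.919) and 1.46 ± 0.51 without array a, still not called (limma adjusted p = 0.093). Without array d in place of a it was -0.04, the single sign change among the 10 probe sets when 1 array was left out.

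Of the chitin-binding proteins, Gasp had the narrowest EC_pos range of the 10 probe sets (0.34 log2 units). The Gasp protein, an obstructor-family component of the tracheal lumen, is recognised by a classical antibody to that lumen. Its probe set read 1207.3, 1360.9, 1332.0 and 1067.1 on EC_pos arrays a to d, 101.2 on LB_pos and 192.7 on LB_neg. All EC_pos arrays, array a included (mean 1242 ± 134, SD, n = 4), lay well above both larval arrays. The difference was 3.06 ± 0.46 against LB_pos (95% interval 1.97 to 4.15, limma adjusted p = 0.0866) and 2.72 ± 0.35 against the larval mean, where Gasp rose (limma adjusted p = 0.0201). Without array a the difference from LB_pos was 3.07 ± 0.37 and was called (limma adjusted p = 0.00158, and 0.00158 to 0.409 over the alternatives).

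The gene obst-A encodes a chitin-binding scaffold protein of the forming cuticle. Its probe set 142891_at read 1105.5, 2261.1, 2345.3 and 1741.0 on EC_pos a to d, 236.2 on LB_pos and 211.2 on LB_neg. The EC_pos arrays again lay above both larval arrays, which were close to each other. It rose against the larval mean by 2.73 ± 0.45 (limma adjusted p = 0.0311) and differed from LB_pos by 2.67 ± 0.58, not called (limma adjusted p = 0.146). The other probe set, 151712_at, read 451.6, 1446.4, 1909.3 and 2051.8 on EC_pos, 469.9 on LB_pos and 262.1 on LB_neg, so its array a fell just below LB_pos. Its differences were 1.35 ± 0.84 from LB_pos (limma adjusted p = 0.518) and 1.71 ± 0.65 from the larval mean (limma adjusted p = 0.196), smaller than those of 142891_at. Without array a both probe sets rose against LB_pos, by 2.89 ± 0.36 and 1.81 ± 0.36 (limma adjusted p = 0.00174 and 0.0145, over the alternatives 0.00174 to 0.455 and 0.0145 to 0.733).

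**Figure D1:**
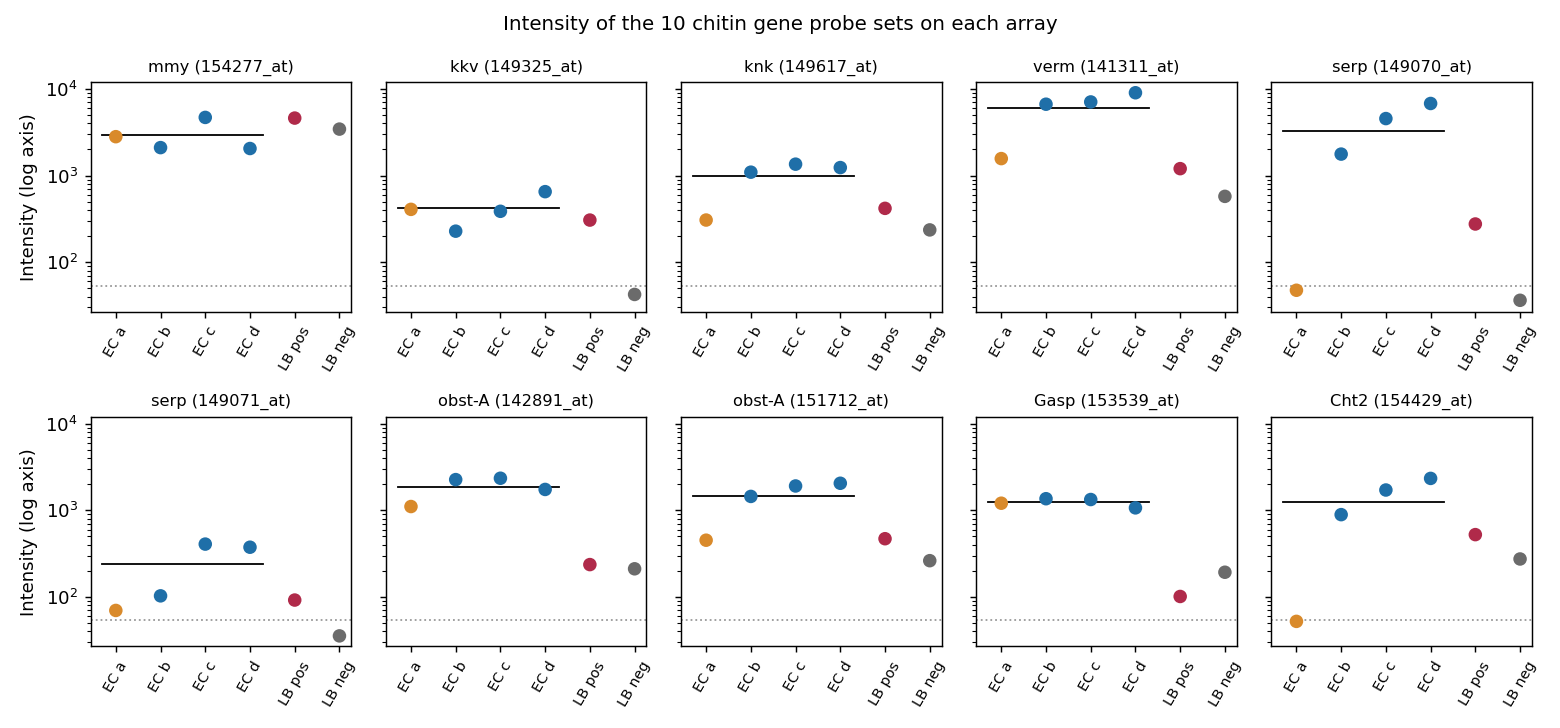
Intensity (log axis) of each of the 10 probe sets on EC_pos arrays a (orange) and b to d (blue), LB_pos (red) and LB_neg (grey). The black line is the mean of the 4 EC_pos arrays and the dotted line 53.6; levels are not comparable between panels. Array a lies below each of b, c and d except for mmy, kkv and Gasp, where it lies among them.

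Taking the 10 probe sets side by side, the comparison of reporter-positive cells from the embryonic culture and from the larval nervous system asks how cells sorted by the same promoter differ between the sources. With all arrays limma called 0 of the 10, and 2 had an unadjusted p under 0.05, Gasp and obst-A 142891_at. Of all 9635 tested probe sets 0.0311% were called, 0.0208% higher and 0.0104% lower, and 13.5% had an unadjusted p under 0.05. Without array a 6 of 10 were called and all 6 were higher in EC_pos, namely knk, verm, serp 149070_at, both obst-A probe sets and Gasp, against 14.1% of all tested probe sets called, 8.61% higher and 5.49% lower. The median difference of the 10 was 1.16 with all arrays and 1.63 without array a, beside -0.24 and -0.26 over all tested probe sets.

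Against the mean of both larval arrays, a contrast that shares the EC_pos arrays and LB_pos with the first, 2 of 10 were called with all arrays, Gasp and obst-A 142891_at, both higher in EC_pos. Over all tested probe sets 3.3% were called, 2.58% higher and 0.716% lower. An unadjusted p under 0.05 was found for 5 of 10, where 21.8% of all had one. These 2 calls were lost without array b, c or d (limma adjusted p of 0.0634 to 0.130 for Gasp and 0.0883 to 0.157 for obst-A), with fitted differences of 2.68 to 2.79 and 2.61 to 2.75. Without array a 7 of 10 were called, all higher, the 6 above and Cht2 (1.87 ± 0.40, limma adjusted p = 0.0114, and 0.0114 to 0.912 over the alternatives), against 28.7% of all tested probe sets called and 14.4% called higher. The probe sets left uncalled there were mmy (-0.54 ± 0.38), kkv (1.26 ± 0.43, limma adjusted p = 0.061) and serp 149071_at (1.46 ± 0.52, limma adjusted p = 0.0666).

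In ranges rather than tests, all 4 EC_pos arrays lay above both larval arrays for verm, obst-A 142891_at and Gasp, 3 of 10, where 14.1% of all tested probe sets did so. Arrays b, c and d lay above both for 8 of 10, all but mmy and kkv, against 21.4%. All 4 EC_pos arrays lay above LB_neg alone for 8 of 10, all but mmy and Cht2, against 24.7%. Gasp and serp 149071_at, held in these counts, passed the brightness filter only through EC_pos.

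**Figure D2:**
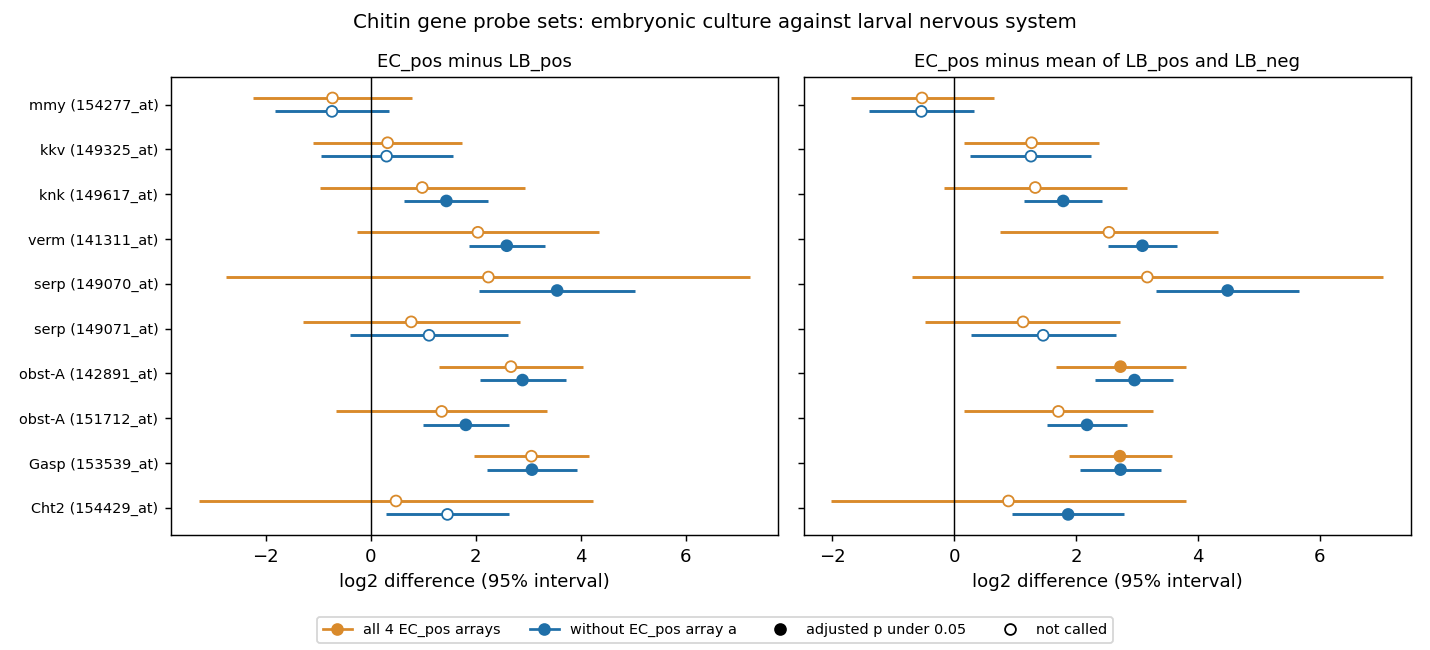
Fitted log2 differences with 95% intervals for each probe set, with all 4 EC_pos arrays (orange) and without array a (blue); filled points have a limma adjusted p under 0.05. With all arrays 0 probe sets pass on the left and 2 on the right, and without array a 6 and 7 pass.

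Within EC_pos the chitin genes differed in how far array a lay from the other arrays. It lay below each of b, c and d for 7 of 10, where 40.3% of all tested probe sets did so. It was at least 1 log2 unit below their mean for 6 of 10 probe sets, against 22.0% of all tested ones, by -5.26 for serp 149070_at, -3.91 for Cht2, -2.22 for verm, -1.86 for obst-A 151712_at, -1.83 for knk and -1.35 for serp 149071_at. For obst-A 142891_at the gap was -0.89. The synthase kkv (0.05), the pyrophosphorylase mmy (0.04) and Gasp (-0.04) lay on array a within 0.1 log2 units of the mean of b, c and d, although for kkv and mmy those arrays themselves lay on both sides of it. Among b, c and d alone, the range was 0.29 log2 units for knk, 0.34 for Gasp, 0.42 and 0.49 for obst-A and 0.44 for verm, and wider for mmy (1.17), kkv (1.32), Cht2 (1.34) and serp (1.56 and 1.91). Hemocyte markers summed to 3157 on array a and 512 to 610 on b, c and d, against 858 on LB_pos and 1766 on LB_neg. Of the array a sum PPO1 gave 1516.8. PPO1, srp and NimC1 were brightest on array a, whereas Hml and Pxn were brighter on LB_neg (745.7 and 515.0) than on array a (213.7 and 411.6). The marker eater read 236.5 on array a and 236.8 on LB_pos. Whether the RNA quality seen in the control ratios of array a, its hemocyte markers or its low muscle markers had a part in this was not tested.

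The larval pair compares reporter-positive with reporter-negative cells of the same tissue. With 1 array in each group there is no test, and only differences of 1 log2 unit or more were counted. It was reached by kkv, at 42.4 on LB_neg and 306.2 on LB_pos (1.91), and by serp 149070_at, at 36.3 and 275.9 (1.87), both higher on LB_pos. That is 2 of 10, where 11.8% of all tested probe sets were at least 1 unit higher and 7.38% at least 1 unit lower, 19.2% in all. The verm probe set, at 575.1 and 1201.6, fell just short (0.997). Both values of kkv and serp on LB_neg lay below 53.6, so these log2 differences depend on the offset. Over the alternatives run they ranged from 1.07 to 2.51 for kkv and from 1.02 to 2.40 for serp.

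The remaining differences on LB_pos were 0.82 for Cht2, 0.73 and 0.13 for obst-A, 0.71 for knk and for serp 149071_at, and 0.42 for mmy, while Gasp was the other way at -0.67. So 9 of 10 were above 0, where 56.0% of all tested probe sets were, and 8 of 10 with quantile normalization or a common median, obst-A 142891_at then being below 0. The median of the 10 was 0.72, against 0.11 over all tested probe sets. With a common median these were 0.48 and -0.18, and with quantile normalization 0.58 and -0.02, so the median of the 10 stayed above that of all probe sets under both scalings. The split of all differences of at least 1 unit, 1137 higher and 711 lower as deposited, became 809 and 925 under quantile normalization, then 687 and 1357 when the medians were made equal. For scale, the 4 EC_pos arrays spanned 1.32 log2 units for kkv and 6.08 for serp 149070_at, and 1.91 among b, c and d for the latter.

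**Figure D3:**
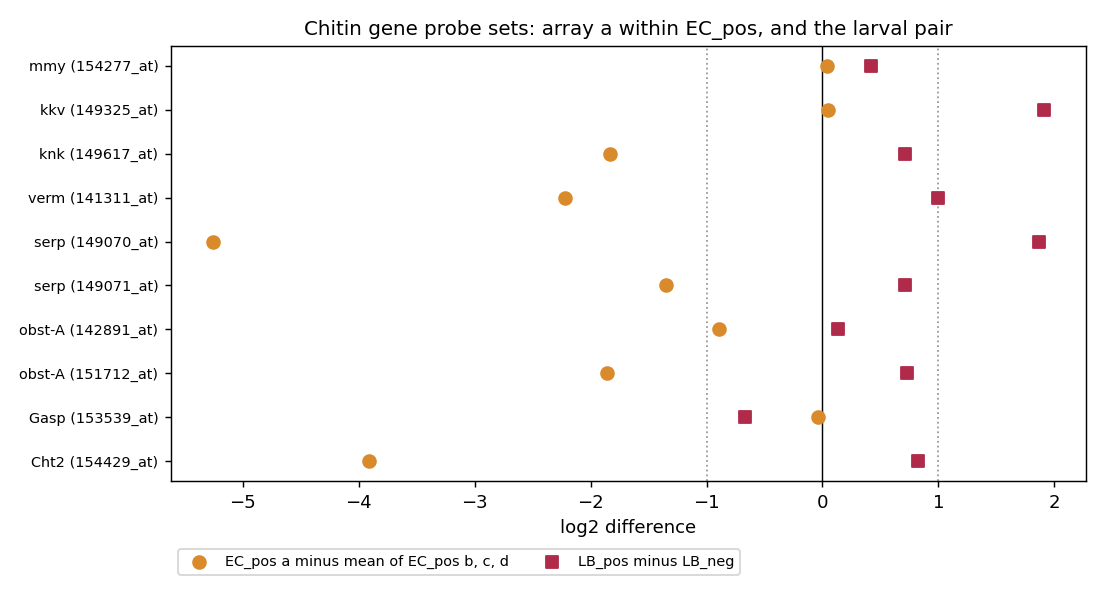
For each probe set, the log2 difference of EC_pos array a from the average of the other EC_pos arrays (circles) and of LB_pos from LB_neg (squares); dotted lines mark 1 log2 unit. The circles reach -5.26 for serp and lie within 0.1 of 0 for mmy, kkv and Gasp, and the squares are all above 0 except Gasp.

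The wider chitin pathway was read from 40 other genes, of which 33 had 42 probe sets and 28 genes with 33 probe sets were tested. With all arrays limma called 0 of the 33 against LB_pos, and 6 had an unadjusted p under 0.05, where 0.0311% and 13.5% of all tested probe sets did. Against the larval mean 2 rose, where 2.58% of all were called higher. These were Idgf4, a chitinase-like secreted protein (4.35 ± 0.72, limma adjusted p = 0.0328), and Cht5, a chitinase of the moulting cuticle (2.80 ± 0.49, limma adjusted p = 0.0366). Idgf4 read 1929.3, 7713.4, 8096.3 and 10323.2 on EC_pos a to d, 280.3 on LB_pos and 207.3 on LB_neg, so every EC_pos array lay far above both larval arrays. Without array a, an alternative added after the data were seen, 15 of the 33 were called against LB_pos and 18 against the larval mean, all higher in EC_pos. The background shares called higher there were those given above, 8.61% and 14.4%. Many of the 15 passed the brightness filter only on EC_pos arrays. They were Chs2, reb, Cda9, obst-F, obst-H, obst-J, Cht5, Cht6 144779_at, Idgf1 and Idgf5. Both larval arrays lay below the filter for them, so the counts called and their direction are not independent of the filter. Array a lay at least 1 log2 unit below the mean of b, c and d for 18 of the 33, where 22.0% of all did so.

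By role, the obstructor family had 5 of 8 tested probe sets called without array a, with a median difference from LB_pos of 2.17. In that fit 8.61% of all tested probe sets were called higher. In it obst-E, a chitin-binding protein that shapes the cuticle, read 432.8, 4847.5, 5542.6 and 6082.4 on EC_pos, 379.9 on LB_pos and 16.8 on LB_neg (probe set 151477_at). Both other tested members of the synthase group were called, the second chitin synthase Chs2 (2.84 ± 0.56) and reb, which acts with kkv in chitin deposition (2.49 ± 0.56). Chs2 read 231.3 to 661.0 on the EC_pos arrays, 19.9 on LB_pos and 41.7 on LB_neg, with no overlap between sources. Both Chs2 and reb, like obst-F, obst-H and obst-J, passed the brightness filter only on EC_pos arrays, and exp was too dim to be tested. Their calls, and the lack of overlap for Chs2, are thus not independent of the filter. Chitinases, chitinase-like proteins and hexosaminidases had 7 of 16 called, 5 of them from the Idgf family of chitinase-like growth factors, with Cht5 and 1 of 2 tested Cht6 probe sets. Deacetylases other than verm and serp had 1 of 5 called, Cda9, and genes of UDP-N-acetylglucosamine supply 0 of 2. Of those called, Cda9, Cht5, Cht6 144779_at, Idgf1 and Idgf5 also passed the filter only on EC_pos arrays. The supply gene Gfat2, which makes glucosamine phosphate, was at -0.54 ± 0.45 from LB_pos without array a, not called (limma adjusted p = 0.426). Treh, the trehalose-splitting enzyme, went the other way, at 0.73 ± 0.31 (limma adjusted p = 0.148). Against the larval mean Treh was called without array a (1.1 ± 0.25, limma adjusted p = 0.0138). It was brightest on array a, at 7570.3 against 1825.2 to 1956.1 on b, c and d.

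In the larval pair 9 of the 33 other probe sets were at least 1 log2 unit higher on LB_pos and 1 was lower, with a median of 0.41. The background shares were 11.8% and 7.38%. The higher ones were obst-E with both probe sets (2.62 and 1.41), the hexosaminidase Hexo2 (1.5), Cht6 144779_at (1.38), Cht10 143960_at (1.37), Cht7 (1.30), Idgf2 (1.17), Cda4 145494_at (1.16) and obst-B (1.09). The lower one was Cda5 (-1.14). Other tested probe sets of these genes differed by less, at -0.11 for Cht6 144781_at, 0.36 for Cht10 141373_at, and 0.2 and 0.86 for Cda4 145492_at and 145493_at. On LB_pos itself Cht6 144779_at (132.9), Cht7 (138.8), Cda4 145494_at (143.7) and Cht10 143960_at (180.8) lay below 197.35. These probe sets passed the brightness filter only on EC_pos arrays. With quantile normalization or a common median 6 of 34 were at least 1 unit higher, with the offset at the 50th percentile 2 of 33, and with the offset at the 10th percentile or a floor in its place 13 of 33. On LB_neg 5 of the 9 lay below 53.6, obst-E 151477_at (16.8), Cht6 (18.2), Cht7 (24.5), Cda4 (34.5) and Cht10 (37.3), so the sizes of their differences depend on the offset.

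**Figure D4:**
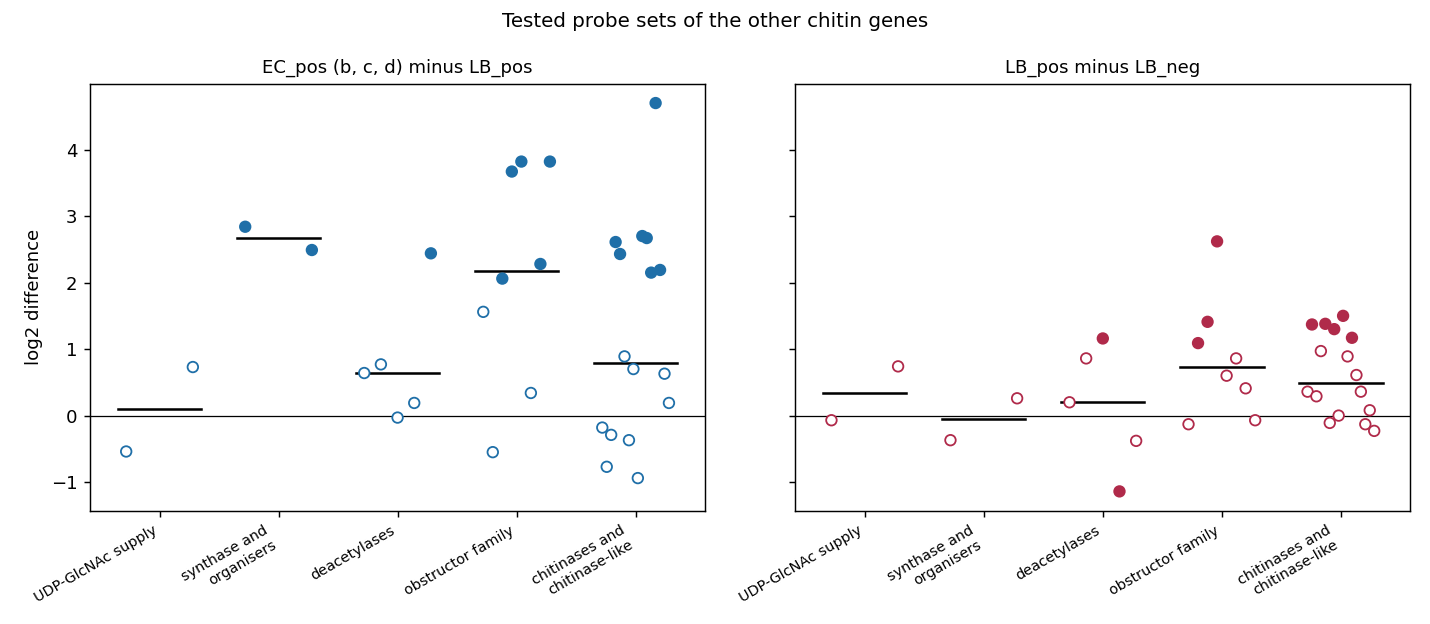
Log2 differences of the 33 tested probe sets of the other chitin genes by role, for EC_pos b, c and d minus LB_pos (filled: limma adjusted p under 0.05) and for LB_pos minus LB_neg (filled: at least 1 log2 unit); black lines are medians. Filled points on the left number 15, all above 0, and many of these probe sets passed the brightness filter only on EC_pos arrays.

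Beside these genes, the epidermal and tracheal markers pio and y also rose against the larval mean with all arrays, by 3.0 ± 0.40 and 2.58 ± 0.40 (limma adjusted p = 0.021 and 0.0276). The marker pio read 3252.8 on array a and 2081.7 to 3451.7 on b, c and d, and y read 1832.9 and 1067.3 to 1086.5, so neither was low on array a. The other tested epidermal and tracheal markers, grh, vvl, ovo and dyl, were not called with or without array a. The muscle marker Mlc2 rose too (4.92 ± 0.77, limma adjusted p = 0.0274), and the neuroblast markers mira (1 of 2 probe sets) and wor and the glial determinant gcm fell (limma adjusted p = 0.0466, 0.0425 and 0.0191). Without array a these 6 probe sets stayed called in the same direction. In that fit 3 of 3 tested muscle probe sets and 2 of 6 epidermal and tracheal ones were called higher, against 14.4% of all. Called lower were 2 of 5 neuron, 3 of 6 neuroblast, 1 of 7 glial and 2 of 5 hemocyte probe sets, against 14.4% of all. The muscle markers up and Tm2 passed the brightness filter only on EC_pos arrays, and gcm only on larval ones.

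The patterns most like those of the chitin genes over the 6 arrays were found among 7416 tested single-gene probe sets that varied by at least 1 log2 unit. For kkv they were btsz, a synaptotagmin-like protein (r = 0.992), CG1213 (0.980), CG7695 (0.975), CG18609 (0.972) and CG8785 (0.970). The btsz probe set read 408.1, 292.7, 473.5 and 727.4 on EC_pos, 313.9 on LB_pos and 43.0 on LB_neg. For the mean profile of the 8 genes they were CG11300 (0.996), CG15673, the serine protease ea, CG11131 and CG6415 (0.995 each). Over the same 6 arrays the other 7 genes correlated with kkv at r between -0.206 (mmy) and 0.689 (verm). With only 6 arrays, 4 of them of 1 source, and 7416 candidates, these values are descriptions.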

How the data were processed

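Expression was measured with 6 one-colour arrays of 3 groups taken from the sample titles. For each array the authors deposited a linear intensity of every probe set. The software behind it is not given in the sources used here. The mean without the lowest and highest 2% was 500.1 on every array, so the deposited intensities were already scaled. At most 18 of 13966 were identical between any 2 arrays. The number of arrays limits the precision.

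Probe sets were named from the platform annotation, updated through gene IDs to RefSeq Release 6 symbols (12442 with 1 gene, 327 with several, 1197 with none). Intensities were used as log2(intensity + 53.6), the offset being the 25th percentile. Probe sets above 197.35 on at least 1 array were tested, 9635 in all. Group means were fitted with limma 3.58.1 (R 4.3.3), with a variance trend and Benjamini-Hochberg adjustment over all tested probe sets, calls at 0.05, two-sided. The 3 residual degrees of freedom came from EC_pos alone, and the fit takes the single larval arrays to vary to the same degree. Without array a 2 were left, so the p-values of that fit rest on the spread of b, c and d. Those were the EC_pos arrays most alike (r = 0.908 to 0.944). The fit was tested on simulated data with independent noise and no outlying array. That simulation does not cover a group in which an array stands apart, as array a does here.

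Named were all 8 genes with every probe set, and of the other lists those called, those 1 log2 unit apart in the larval pair, and the brightest. Those named as called without array a, and the marker genes named as not called, were chosen after their values were seen. The genes and lists were chosen with earlier results of these data known. Alternatives changed the offset, filter, scaling, variance trend and the EC_pos arrays used. Promoter motifs, planned, were not analysed here.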

Additional observations from a re-analysis of the deposited data

Results flagged for a closer look

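The gene knk on EC_pos array a, at 306.5 against 1093.9 to 1353.6 on b, c and d, stood apart from its group by Dixon's test on the log2 scale (gap over range 0.85, above the 95% critical value). It was 1 of 10 probe sets examined in this way, and chance flags about 1 group in 20.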

How the results depend on the processing

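The counts of calls depended on which EC_pos arrays were used. For EC_pos minus LB_pos, leaving out 1 array gave 0 to 1359 calls in all (3 with all arrays) and 0 to 6 among the 10 chitin probe sets (0). For EC_pos minus the larval mean the ranges were 0 to 2767 (318) and 0 to 7 (2). Without array a the counts were the highest, and without b, c or d 0 chitin probe sets passed. Other settings moved the total for EC_pos minus LB_pos from 3 to 12 with the offset at the 10th percentile, 0 at the 50th, 6 with no filter and 7 with quantile normalization, and the total against the larval mean from 318 to 210 with the offset at the 50th percentile. In the larval pair the offset at the 10th percentile gave 4 chitin probe sets at least 1 log2 unit apart in place of 2, and at the 50th percentile 817 in all in place of 1848. The cause of these shifts was not tested. The median of the chitin probe sets stayed between 0.97 and 1.63 for EC_pos minus LB_pos, 1.26 and 2.02 against the larval mean, and 0.48 and 0.84 in the larval pair under the alternatives run. Making the array medians equal moved the EC_pos minus LB_pos median of all tested probe sets from -0.24 to -0.01 and that of the chitin probe sets from 1.16 to 1.38. Cht2 against LB_pos was 0.48 with all arrays, reversed to -0.04 without array d and 1.46 without array a. No paired test was possible because each larval group had 1 array and the labels state no pairing between arrays.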
